A study of Mus musculus with 12 samples.

Results

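Insulin-like growth factor 1, its receptor, the binding proteins that hold it outside the cell and Pappa, a protease that cuts some of them, were followed in mouse fat cells that received let-7 microRNA mimics. The genes are Igf1, Igf1r, Igfbp2, Igfbp3, Igfbp4, Igfbp5, Igfbp6, Igfbp7 and Pappa, chosen by symbol, and 9 of 9 were found among the 15754 genes of the count table. The white adipocytes sequenced came from epididymal fat of wild-type male C57BL/6 mice that were 8 weeks old and ate chow. The stromal vascular fraction, which is fat tissue without its mature fat cells, was differentiated with rosiglitazone at 1 µM, insulin at 850 nM, dexamethasone at 1 µM and IBMX at 250 µM. A let-7d mimic, a let-7e mimic or a negative control was transfected on day 4, and cells were harvested on day 7. All 3 groups went through the same treatment, controls included. Each group had 4 libraries, and its sample identifiers come in 2 runs of numbers. Replicates 3 and 4 of every group lie in what is here called ID run 2, the others in ID run 1. What separates the runs is not stated. Nor do the labels tell whether a replicate was a culture or an animal of its own, and the p-values below therefore reflect library-to-library spread, which may be technical.

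IGF1 is a secreted hormone related to insulin that drives growth, survival and the making of fat cells through the IGF1 receptor, a tyrosine kinase at the cell surface. IGF binding proteins capture the hormone outside the cell and mostly keep it from the receptor, and proteases such as PAPP-A, the product of Pappa, release it again by cutting the binding protein. A microRNA lowers messages that pair with its seed, the bases near its 5′ end, and the let-7 family is known for targets in growth factor pathways.

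The mature sequences of the mimicked microRNAs are shown to compare their seeds, which are in capitals (bases 2 to 8). They are RefSeq's for GRCm38.p6, and lie at chr13:48536078-48536099 on the minus strand for let-7d and chr17:17830366-17830387 on the plus strand for let-7e.
mmu-let-7d-5p: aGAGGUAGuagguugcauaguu
mmu-let-7e-5p: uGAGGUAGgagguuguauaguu
The seeds are the same, and the mature sequences differ at A1U, U9G and C16U, counted from the 5′ end with the let-7d base first.

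The longest annotated 3′ UTR of each gene (GENCODE vM21) was searched on the sense strand for CTACCTC, the complement of bases 2 to 8 (7mer-m8), for TACCTCA, the complement of bases 2 to 7 followed by A (7mer-A1), and for both together, CTACCTCA (8mer), each site being counted once under its longest type. Igf1, Igf1r, Igfbp5 and Pappa hold at least 1 match, and they are the genes with the longest 3′ UTRs of the 9. The sites are printed 5′ to 3′ on the strand of the gene with the match in capitals, since they are where a let-7 seed could pair.
Igf1 8mer: aatatgtcatctacCTACCTCA
Igf1r 7mer-A1: ttcacaagcctcctgTACCTCA
Igf1r 8mer: tttcaaacatttatCTACCTCA
Igf1r 7mer-m8: ttgccagagttcatCTACCTCt
Igfbp5 7mer-m8: ttccccaggtcagcCTACCTCc
Pappa 7mer-m8: gggacagatttcagCTACCTCc
Pappa 8mer: atacaactagttacCTACCTCA
Pappa 7mer-A1: ctgttcttcttcctgTACCTCA
The Igf1 site lies at chr10:87932080-87932101 on the plus strand, in a 3′ UTR of 6308 bases. The Igf1r sites lie at chr7:68226498-68226519, chr7:68229111-68229132 and chr7:68233217-68233238 on the plus strand, in a 3′ UTR of 7267 bases. The Igfbp5 site lies at chr1:72859679-72859700 on the minus strand, in a 3′ UTR of 4445 bases. The Pappa sites lie at chr4:65354964-65354985, chr4:65355984-65356005 and chr4:65357091-65357112 on the plus strand, in a 3′ UTR of 5784 bases.

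No match was found in the 3′ UTRs of Igfbp2, Igfbp3, Igfbp4, Igfbp6 and Igfbp7, which have from 209 to 2813 bases. Matches were commoner in long 3′ UTRs: of 13547 measured genes with an annotated 3′ UTR 17.0% hold a match and 3.75% an 8mer, but among the 1105 genes with a 3′ UTR of at least 4000 bases 49.2% hold one. The plot of matches along the 3′ UTRs shows this contrast between long and short. A match of these letters is a description and was not tested as a site of binding in these cells, and levels of the microRNAs themselves were not analysed here.

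**Figure D1:**
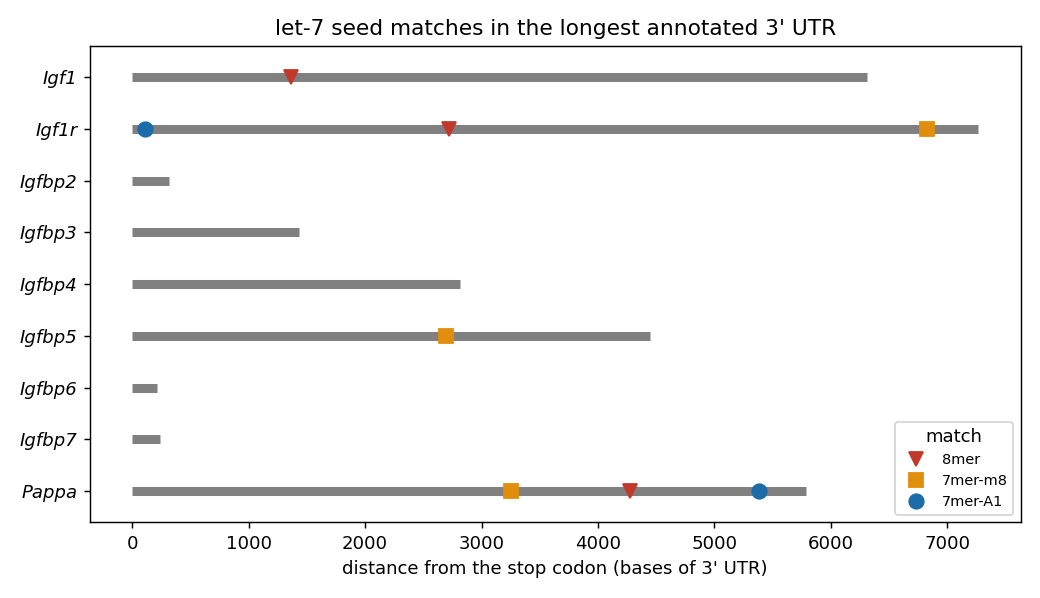
Positions of let-7 seed matches along the longest annotated 3′ UTR of each of the 9 genes. The x axis is the distance from the stop codon in bases, grey bars span the 3′ UTR, and marks show 8mer, 7mer-m8 and 7mer-A1 matches: Pappa and Igf1r carry 3 each, Igf1 and Igfbp5 carry 1, and the 5 short 3′ UTRs carry none.

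The libraries held from 15071299 to 33396316 counts. Levels below are CPM (counts per 1000000 counts of the library), scaled by TMM, which evens out library composition. The fat cell label held in its markers: 11 of 12 listed adipocyte markers were measured, none at 0, with a summed level of 4006 to 5806 CPM over the 6 libraries of ID run 2, against 17962 to 20104 CPM over those of ID run 1. Markers of preadipocytes and fibroblasts were also high, at 15253 to 17704 CPM in ID run 2 and 26617 to 30900 CPM in ID run 1 (14 of 14 listed genes). Whether other cells or the fat cells themselves made these messages was not tested. The lower sum in ID run 2 does not stand for most of these genes. By gene, 9 of the 14 were higher and 5 lower in ID run 2, with a median log2 fold change of 1.08. Fewer cells of a type and less RNA per cell cannot be told apart in such bulk libraries.

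Igfbp7 was the most abundant of the 9 messages in both runs. Per kilobase of exon, Igfbp7, which binds IGFs only weakly and is deposited in the matrix, averaged 1298 ± 210.2 CPM per kilobase in ID run 2 and 764 ± 31.2 CPM per kilobase in ID run 1 (SD over 6 libraries, the 3 groups together). Igfbp7 stood above every other member in each library. Its value carries an uncertainty, because 85 exon bases are shared with Polr2b on the opposite strand and the strand setting of the counting is not given in the sources used here.

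The order below Igfbp7 differed between the runs. In ID run 2 Igfbp6 came next at 302 ± 37.8 CPM per kilobase, ahead of Igfbp3 at 178 ± 25.1 and Igfbp4 at 147 ± 44.1, the last pair with overlapping libraries. In ID run 1 Igfbp4 at 152 ± 17.5 and Igfbp6 at 112 ± 13.9 CPM per kilobase overlapped, and Igfbp3 lay below them at 64.5 ± 17.9. Igf1 had 29.4 ± 6.12 CPM per kilobase in ID run 2, where it overlapped Igfbp2 at 52.3 ± 10.0, and 35.2 ± 2.25 in ID run 1, where Igfbp2 lay below it at 19.1 ± 3.81. Such an order depends on dividing by all annotated exon bases of a gene, 9904 for Igf1 and 1847 for Igfbp2. By CPM alone Igf1 lay above Igfbp2 in every library, as at 405 against 108 CPM in control replicate 3.

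At the low end stood Pappa, Igf1r and Igfbp5. Pappa averaged 7.57 ± 3.50 CPM per kilobase in ID run 2, above every Igf1r library at a mean of 1.99 ± 0.24. In ID run 1 Pappa at 4.50 ± 1.97 and Igf1r at 3.89 ± 0.36 CPM per kilobase overlapped. Igfbp5 was the lowest of the 9 in both runs, at 0.503 ± 0.103 CPM per kilobase for ID run 2 and 1.92 ± 0.28 for ID run 1. The plot of levels per kilobase gives this order library by library.

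**Figure D2:**
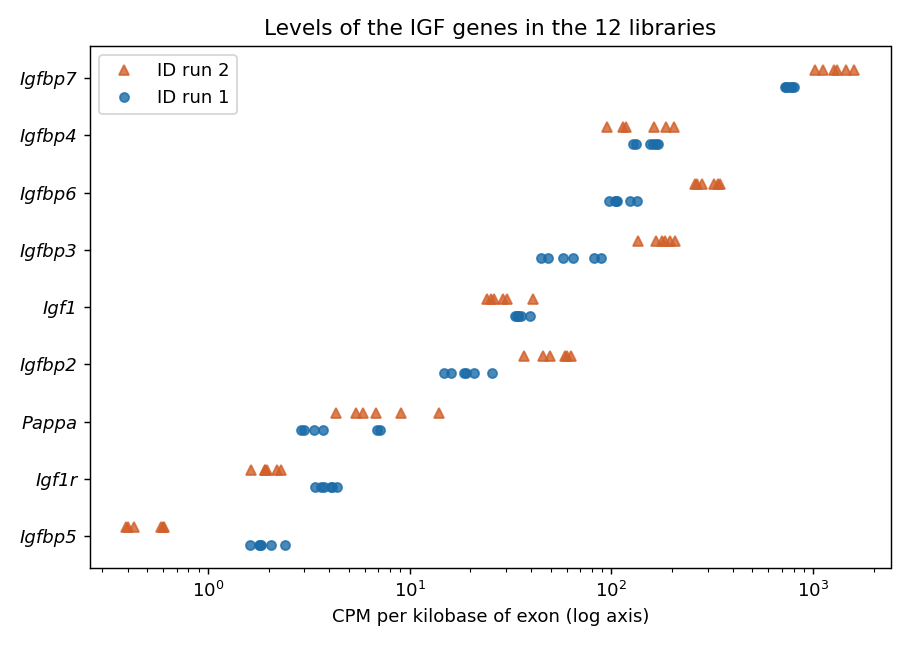
Levels of the 9 genes in the 12 libraries, as CPM per kilobase of exon on a log axis. Each triangle is a library of ID run 2 and each circle one of ID run 1: Igfbp7 is highest in both runs, Igfbp5 lowest, and Igfbp2, Igfbp3 and Igfbp6 lie higher in ID run 2 while Igf1r and Igfbp5 lie higher in ID run 1.

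With let-7d, 8 of the 9 genes changed against control. Igf1, Igf1r, Igfbp3, Igfbp5 and Pappa fell, Igfbp2, Igfbp4 and Igfbp7 rose, and Igfbp6 did not pass the test. With let-7e, Igf1, Igfbp3 and Pappa fell, and the other 6 did not pass. A gene was called where edgeR's quasi-likelihood test, fitted to all 12 libraries with a term for the ID run, gave an adjusted p under 0.05 over all genes. By that rule 16.2% of all genes were called with let-7d, 6.41% higher and 9.81% lower, and 9.50% with let-7e, 3.81% higher and 5.69% lower. The called share of the 9 genes lay above these backgrounds with both mimics, but the genes were picked with results of these data known, and both comparisons use the same control libraries. The median log2 fold change of the 9 was -0.27 with let-7d and -0.13 with let-7e, where the median of all genes was -0.0022 and -0.0019. Without TMM scaling the called genes with let-7d split into 1451 higher and 1089 lower, in place of 1010 higher and 1545 lower. No member turned its direction against control under any of 23 alternative settings, which all reuse these libraries.

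**Figure D3:**
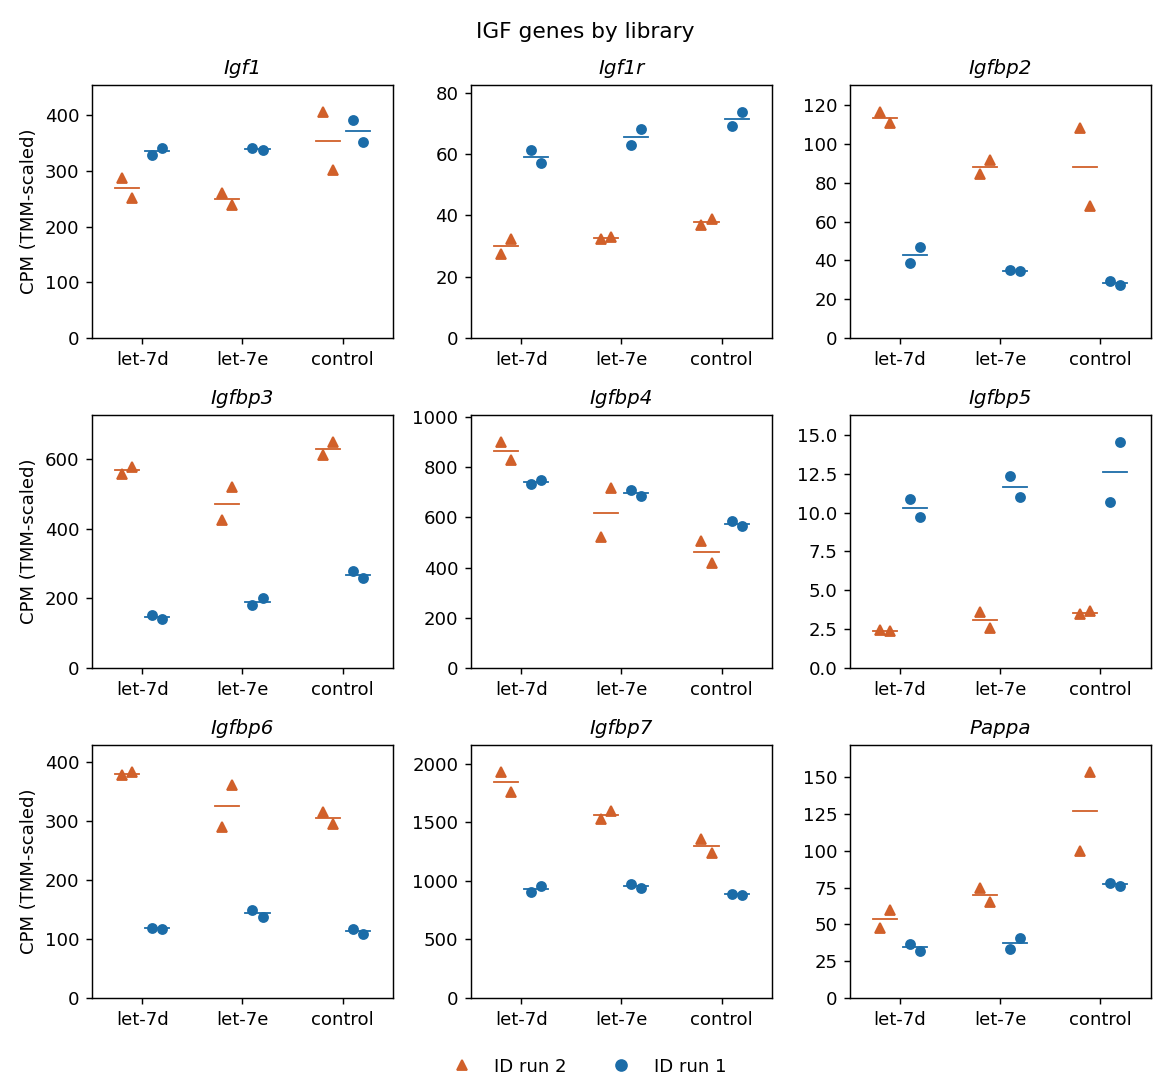
Level of each of the 9 genes in every library, in TMM-scaled CPM. Triangles are libraries of ID run 2, circles those of ID run 1, and short lines are the means of the 2 libraries of a group in a run: Pappa lies lower with let-7d and let-7e than in control within each run, and Igfbp4 lies higher.

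Igf1 (ENSMUSG00000020053.18, chr10:87858265-87937042 on the plus strand), the ligand, was lower with either mimic by a modest amount. Its levels in ID run 2 were 288 and 252 CPM with let-7d, 260.5 and 239 CPM with let-7e, and 405 and 302 CPM in control. The ID run 1 levels were 329 and 341 CPM with let-7d, 340.0 and 337 CPM with let-7e, and 391 and 352 CPM in control. Every mimic library lay below both control libraries of its own run, with control replicate 3 the highest of the 12. With 2 libraries per group in a run such an order can arise by chance, here and for the genes below. The share of all genes that show it was not counted.

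Igf1 fell by 0.27 ± 0.089 on the log2 scale with let-7d (SE, edgeR adjusted p = 0.0455) and by 0.32 ± 0.089 with let-7e (adjusted p = 0.0330). Control replicate 3 weighed in these values: without control replicate 3 the log2 fold changes were -0.15 with let-7d (adjusted p = 0.129) and -0.19 with let-7e (adjusted p = 0.0664), and neither was called. Leaving out any of 9 single libraries ended the let-7d call (control replicates 1 and 3, each let-7d library, let-7e replicates 1, 2 and 3), with adjusted p up to 0.131, and any of 6 ended the let-7e call (control replicates 1 and 3, each let-7e library), up to 0.117, as did fits of only the groups compared, at 0.0806 with let-7d and 0.0585 with let-7e. With let-7d it also ended with library totals (0.0864) and at a mean CPM of at least 5 (0.0599).

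Igf1r (ENSMUSG00000005533.10, chr7:67952827-68233668 on the plus strand), the receptor that carries the IGF1 signal, was lower with let-7d. The ID run 2 libraries held 27.4 and 32.3 CPM with let-7d, 32.3 and 32.9 CPM with let-7e, and 36.8 and 38.7 CPM in control. The libraries of ID run 1 held 61.3 and 57.03 CPM with let-7d, 62.9 and 68.1 CPM with let-7e, and 69.2 and 73.7 CPM in control. Within each run the mimic libraries lay below both control libraries.

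With let-7d the level of Igf1r was 0.810 of control (95% interval 0.744 to 0.881, edgeR adjusted p = 0.00202), a call that held without any single library. With let-7e it was 0.891 of control (95% interval 0.819 to 0.969, adjusted p = 0.0801), which was not called. The difference between the mimics, let-7d minus let-7e, was -0.14 ± 0.057 on the log2 scale and was not called (adjusted p = 0.474). Insr, the insulin receptor and close relative of Igf1r, was not called either, at -0.10 ± 0.086 with let-7d (adjusted p = 0.471) and -0.13 ± 0.086 with let-7e (adjusted p = 0.411).

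Of the binding proteins, Igfbp4 changed most with let-7d in the fit of both runs, and upward. In ID run 1 alone Igfbp3 (log2 fold change -0.87) and Igfbp2 (0.61) changed more than Igfbp4 (0.37). Igfbp4 (ENSMUSG00000017493.12, chr11:99041244-99054392 on the plus strand) encodes a protein known to hold IGFs away from the receptor and to be the best studied substrate of PAPP-A. Its levels in ID run 2 were 899.65 and 827 CPM with let-7d, 521 and 718 CPM with let-7e, and 506 and 418 CPM in control. Those of ID run 1 were 734 and 748 CPM with let-7d, 708 and 683 CPM with let-7e, and 586 and 565 CPM in control. All mimic libraries lay above both controls of their run, though let-7e replicate 3 only just.

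Igfbp4 was 1.56 times the control level with let-7d (95% interval 1.33 to 1.82, edgeR adjusted p = 8.575e-04), a call that held in every fit that left out 1 library. In each run alone its let-7d log2 fold change was 0.92 in ID run 2 and 0.37 in ID run 1. A fit that let the effect differ between runs put run 2 minus run 1 at 0.54 ± 0.17, not called (edgeR adjusted p = 0.170). With let-7e Igfbp4 was 1.27 times control (95% interval 1.08 to 1.49), just outside the threshold at an adjusted p of 0.0542. Leaving out let-7e replicate 3 gave a log2 fold change of 0.44 (adjusted p = 0.0146), and DESeq2 gave 0.34 (adjusted p = 0.0271). Other edgeR fits moved away from a call, with an adjusted p up to 0.178 with 1 library left out and 0.201 in ID run 2 alone. The difference between the mimics was 0.29 ± 0.11 on the log2 scale (adjusted p = 0.405) and was not called.

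Igfbp2 (ENSMUSG00000039323.18, chr1:72824503-72852474 on the plus strand), a binding protein made by fat cell precursors and known to act on adipogenesis, rose with let-7d. In ID run 2 its level was 116 and 111 CPM with let-7d, 84.7 and 91.8 CPM with let-7e, and 108 and 67.9 CPM in control. ID run 1 gave 38.5 and 47.1 CPM with let-7d, 35.0 and 34.4 CPM with let-7e, and 29.4 and 27.3 CPM in control. Both let-7d libraries lay above both controls in each run, and the let-7e libraries did so in ID run 1 but lay between the controls of ID run 2.

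The log2 fold change of Igfbp2 was 0.46 ± 0.11 with let-7d (edgeR adjusted p = 0.00994) and 0.12 ± 0.11 with let-7e (adjusted p = 0.569). Control replicate 3 decides the second value: without it, Igfbp2 rose by 0.32 with let-7e (adjusted p = 0.00881). With another single library left out the let-7e adjusted p reached up to 0.961. Between the mimics Igfbp2 showed the widest positive difference of the 9, at 0.34 ± 0.11 (95% interval 0.11 to 0.57), with an adjusted p of 0.330. That difference was called without control replicate 3 (adjusted p = 0.0363) and in a fit of only these groups (adjusted p = 0.0172). Leaving out another single library gave it an adjusted p of up to 0.731.

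Igfbp5 (ENSMUSG00000026185.8, chr1:72857932-72874884 on the minus strand) is the neighbour of Igfbp2, 5457 bases away on the opposite strand, and encodes a binding protein that attaches to the matrix and is another PAPP-A substrate. Its levels were low, at 2.42 and 2.37 CPM with let-7d, 3.61 and 2.59 CPM with let-7e, and 3.50 and 3.64 CPM in control in ID run 2. Higher levels were found in ID run 1, with 10.9 and 9.71 CPM with let-7d, 12.3 and 10.98 CPM with let-7e, and 10.7 and 14.5 CPM in control. The let-7d libraries lay below both controls in ID run 2 and overlapped them in ID run 1, and the let-7e libraries overlapped the controls in both.

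Igfbp5 fell by 0.40 ± 0.13 on the log2 scale with let-7d, at the edge of the threshold (edgeR adjusted p = 0.0462). The call ended without any of 8 single libraries (control replicates 2, 3 and 4, let-7d replicates 2, 3 and 4, let-7e replicates 1 and 2), with adjusted p up to 0.146, and with limma-voom (0.0802) or library totals (0.0719). With let-7e the value was -0.13 ± 0.12 (adjusted p = 0.581). Igfbp2 and Igfbp5, side by side on chromosome 1, thus had opposite signs with let-7d.

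Igfbp3 (ENSMUSG00000020427.11, chr11:7206086-7213923 on the minus strand), known as the main carrier of IGFs in blood, fell with both mimics. Its levels in ID run 2 were 558 and 578 CPM with let-7d, 424 and 520.0 CPM with let-7e, and 611 and 649 CPM in control. ID run 1 showed 152 and 140.3 CPM with let-7d, 181 and 201 CPM with let-7e, and 279 and 257 CPM in control. No mimic library reached its run's controls.

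Igfbp3 fell by 0.49 ± 0.12 on the log2 scale with let-7d (edgeR adjusted p = 0.0102) and by 0.46 ± 0.12 with let-7e (adjusted p = 0.0230). The let-7e call ended without control replicate 1 (adjusted p = 0.0836), control replicate 2 (0.0679), let-7e replicate 1 (0.0611) or let-7e replicate 3 (0.0753), and with DESeq2 (adjusted p = 0.0631). The let-7d effect depended on the run, with a log2 ratio of mean levels of -0.15 within ID run 2 against -0.88 within ID run 1. That difference, run 2 minus run 1, was 0.73 ± 0.13 in the interaction fit (adjusted p = 0.0449), a call made for 0.241% of all genes and, of the 9, for Igfbp3 alone. The call ended without any of 6 single libraries, control replicate 3, let-7d replicates 1, 2 and 3 and let-7e replicates 1 and 2, with adjusted p up to 0.240. For let-7e the same difference was 0.075 ± 0.13 (adjusted p = 0.906), and 0 of the 9 were called by edgeR against 0.00635% of all genes, 1 at an unadjusted p under 0.05 and 0 by DESeq2 or limma-voom.

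Igfbp7 (ENSMUSG00000036256.13, chr5:77349240-77408041 on the minus strand) rose with let-7d. The message stood in ID run 2 at 1931 and 1761 CPM with let-7d, 1532 and 1597 CPM with let-7e, and 1355 and 1242 CPM in control. The corresponding levels of ID run 1 were 907 and 954 CPM with let-7d, 971 and 943 CPM with let-7e, and 889 and 878 CPM in control. Mimic libraries lay above both controls in each run, by a small margin in ID run 1.

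Igfbp7 was 1.23 times control with let-7d (95% interval 1.10 to 1.37, edgeR adjusted p = 0.0144) and 1.14 times control with let-7e (95% interval 1.02 to 1.27, adjusted p = 0.136). Without control replicate 4 the let-7d call ended (adjusted p = 0.0517), and in ID run 1 alone the log2 fold change was 0.083 (adjusted p = 0.395). The let-7d effect in run 2 minus that in run 1 was 0.43 ± 0.10 on the log2 scale, which edgeR did not call (adjusted p = 0.0827). DESeq2 did, at 0.45 (adjusted p = 0.00366), and so did edgeR without let-7d replicate 4, at 0.498 (0.0485). Without another single library edgeR gave an adjusted p of up to 0.305.

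Igfbp6 (ENSMUSG00000023046.6, chr15:102144362-102149511 on the plus strand), a binding protein that prefers IGF2, passed the test with neither mimic. Its levels in ID run 2 were 377 and 382 CPM with let-7d, 288 and 359 CPM with let-7e, and 315 and 295 CPM in control. ID run 1 held 119 and 117 CPM with let-7d, 149 and 137 CPM with let-7e, and 117 and 108 CPM in control. The let-7d libraries overlapped the controls in ID run 1 and the let-7e libraries overlapped them in ID run 2. The log2 fold changes were 0.20 ± 0.089 with let-7d (edgeR adjusted p = 0.145, 95% interval 0.011 to 0.39) and 0.22 ± 0.089 with let-7e (adjusted p = 0.149, 95% interval 0.029 to 0.41). Without let-7e replicate 3 the let-7e value was 0.32 and was called (adjusted p = 0.0135). With another single library left out its adjusted p rose to as much as 0.422.

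Pappa (ENSMUSG00000028370.7, chr4:65124174-65357509 on the plus strand) had the largest change of the 9 with each mimic, downward. Its levels in ID run 2 were 47.8 and 59.5 CPM with let-7d, 75.0 and 65.1 CPM with let-7e, and 100.1 and 154 CPM in control. Pappa in ID run 1 had 36.8 and 32.0 CPM with let-7d, 33.1 and 41.0 CPM with let-7e, and 78.5 and 76.2 CPM in control. No mimic library reached the lower control of its run, and control replicate 4 was the highest of the 12.

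The Pappa level was 0.432 of control with let-7d (95% interval 0.363 to 0.514, edgeR adjusted p = 1.206e-05) and 0.517 of control with let-7e (95% interval 0.436 to 0.613, adjusted p = 1.101e-04). Both calls held without any single library and in each run alone. The difference between the mimics was -0.26 ± 0.12 on the log2 scale (95% interval -0.51 to -0.0060) with an adjusted p of 0.523.

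Between let-7d and let-7e directly, edgeR called 0 of the 9 genes, against 0.152% of all genes. At an unadjusted p under 0.05 there were 4, Igf1r, Igfbp2, Igfbp4 and Pappa, and DESeq2 and limma-voom called 0. The 95% intervals still allow log2 differences of up to 0.57 for Igfbp2 and down to -0.53 for Igfbp5, so the mimics were not shown to act alike on them. The plot of fold changes places each pair of estimates side by side.

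**Figure D4:**
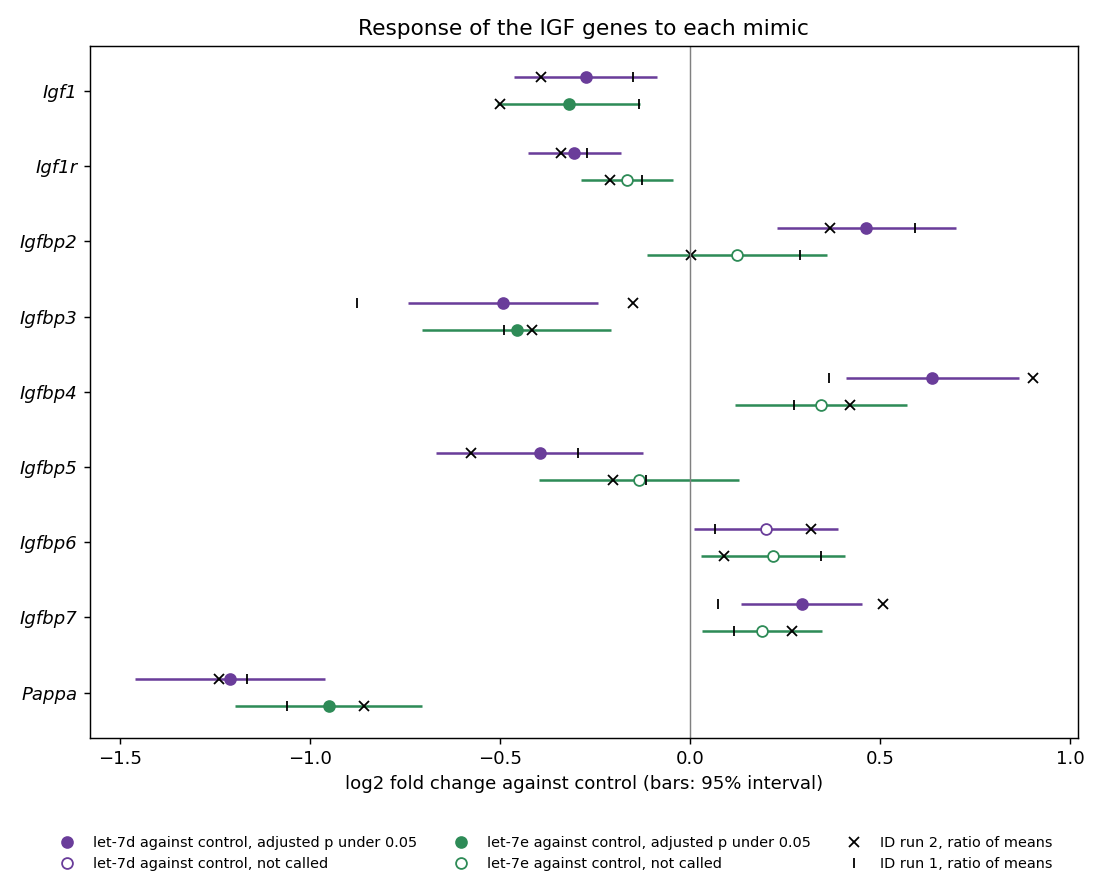
Log2 fold change of each of the 9 genes against control, with let-7d above let-7e in each row and bars for the 95% interval. Filled points passed an adjusted p of 0.05, and crosses and vertical ticks give the log2 ratio of mean CPM within ID run 2 and ID run 1: Pappa lies at -1.21 with let-7d and -0.95 with let-7e, and the Igfbp3 marks for let-7d lie far apart.

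Fitted in each run by itself, with 2 libraries a group, let-7d changed 3 of the 9 in ID run 2, Igfbp4 (log2 fold change 0.92), Igfbp7 (0.53) and Pappa (-1.22), where 4.86% of all genes tested were called, and 5 of the 9 in ID run 1, where 14.2% were, Igf1r (-0.26), Igfbp2 (0.61), Igfbp3 (-0.87), Igfbp4 (0.37) and Pappa (-1.17). Igf1r with let-7d was at -0.32 in ID run 2 (adjusted p = 0.0809), and Igfbp2 at 0.39 (adjusted p = 0.185). With let-7e, Pappa changed in ID run 2 (-0.85), against 1.29% of all genes, and Igfbp3 (-0.48), Igfbp4 (0.29), Igfbp6 (0.36) and Pappa (-1.06) changed in ID run 1, against 10.2%. Pappa was thus called with each mimic in each run.

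The make-up of the binding protein messages shifted along with these levels. Of the summed Igfbp2 to Igfbp7 level per kilobase in ID run 2, Igfbp3 made up a mean of 7.88% with let-7d, 7.82% with let-7e and 11.9% in control. A share also depends on the sum. In ID run 2 the sum averaged 2307 CPM per kilobase for let-7d, 1925 for let-7e and 1702 for control. Igfbp3 itself had a log2 ratio of mean levels to control of -0.15 for let-7d there, against -0.42 for let-7e. The similar shares thus do not stand for similar falls of Igfbp3. In ID run 1 the sums were 1115, 1160 and 1066 in the same order. The ID run 1 shares of Igfbp3 were 4.20% with let-7d, 5.27% with let-7e and 8.04% in control. Igfbp4 moved the other way, at 8.47% with let-7d, 7.24% with let-7e and 6.13% in control in ID run 2, and 15.05% with let-7d, 13.6% with let-7e and 12.2% in control in ID run 1. In ID run 2 the Igfbp4 share of let-7e replicate 3, 6.45%, lay between the controls at 5.80% and 6.47%, so that the higher let-7e mean there rests on replicate 4 at 8.03%. Igfbp7 held from 63.1% to 69.0% in every group and run.

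The message of the substrate Igfbp4 stood higher relative to that of its protease in the mimic libraries. The ratio of Igfbp4 to Pappa CPM in ID run 2 was 18.8 and 13.9 with let-7d, 6.95 and 11.02 with let-7e, and 5.06 and 2.72 in control. It was 19.9 and 23.3 with let-7d, 21.4 and 16.7 with let-7e, and 7.46 and 7.41 in control in ID run 1. No mimic library overlapped the controls of its run, and let-7e replicate 3 came nearest. That follows from the levels of Igfbp4 and Pappa given above and adds no support to them. It was not particular to Igfbp4: the ratio of Igfbp5 to Pappa was also above both controls in every mimic library. In ID run 2 that ratio was 0.051 and 0.040 with let-7d, 0.048 and 0.040 with let-7e, and 0.035 and 0.024 in control. In ID run 1 it was 0.295 and 0.303, 0.372 and 0.268, and 0.137 and 0.191. These are ratios of message levels, and proteins were not measured here.

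Between ID run 2 and ID run 1, 8 of the 9 genes differed, where 81.7% of all genes were called, 41.7% higher and 40.0% lower, so the count says little about these genes. Igfbp2, Igfbp3 and Igfbp6 were higher in ID run 2 by 1.46 ± 0.092, 1.495 ± 0.098 and 1.43 ± 0.074 on the log2 scale (edgeR adjusted p of at most 3.309e-10 each). Pappa was higher by 0.76 ± 0.096 and Igfbp7 by 0.75 ± 0.062. Igfbp5, Igf1r and Igf1 were lower in ID run 2, at -1.92 ± 0.10, -0.97 ± 0.047 and -0.27 ± 0.072, and Igfbp4 did not pass at -0.088 ± 0.087 (adjusted p = 0.361). Adipocyte markers moved with the runs, 11 of 11 lower in ID run 2, as did macrophage markers, 16 of 17 lower. Of 14 preadipocyte and fibroblast markers 9 were higher and 5 lower, though their summed level was lower in ID run 2. The part of these cells in the run differences was not tested. Without a term for the run edgeR called 0 of the 9 with either mimic, 2 with each at an unadjusted p under 0.05, and no other tool was run in that design.

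Adipocyte markers were called for 1 of 11 with let-7d (Lipe, lower) and 0 of 11 with let-7e, at a median log2 fold change of -0.17 and -0.062. Of 9 mesothelium markers 0 were called with either mimic. Some markers of other cells moved with the mimics. Beside their counts stand the shares of all genes, 6.41% higher and 9.81% lower with let-7d, and 3.81% higher and 5.69% lower with let-7e. Of 13 smooth muscle and pericyte markers 6 were lower and 0 higher with each mimic; their summed level in ID run 2 was 6056 to 6646 CPM with let-7d, 6406 to 6533 CPM with let-7e and 7663 to 8027 CPM in control. In ID run 1 that sum was 4070 to 4233 CPM with let-7d, 3727 to 4061 CPM with let-7e and 4553 to 5721 CPM in control. Of 14 preadipocyte and fibroblast markers 4 were higher and 2 lower with let-7d, and 3 higher and 2 lower with let-7e. Of 17 macrophage markers 4 were higher with let-7d, and their sum in ID run 2 was 89.9 to 205 CPM with let-7d, 80.3 to 108 CPM with let-7e and 39.6 to 59.2 CPM in control. Their ID run 1 sums were 464 to 489 CPM with let-7d, 347 to 525 CPM with let-7e and 472 to 476 CPM in control. Endothelial markers were lower for 2 of 12 with let-7d (Flt1 and Eng) and 1 of 12 with let-7e (Flt1), and the median log2 fold change of the 12 was above 0, with let-7d at 0.18 and with let-7e at 0.075. With so few called, the endothelial counts say little beside the shares of all genes. The part of these cells in the changes of Igf1, the Igfbp genes and Pappa was not tested.

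Around the 9 genes, 69 of 74 other listed genes of the IGF pathway were measured, and 5 were higher and 21 lower with let-7d, and 5 higher and 14 lower with let-7e. The shares of all genes, which are the background for each list below as well, were 6.41% higher and 9.81% lower with let-7d, and 3.81% higher and 5.69% lower with let-7e. The median log2 fold change of the 69 was -0.092 with let-7d and -0.060 with let-7e. Between the mimics edgeR called 0 of the 69, with 14 at an unadjusted p under 0.05, 1 by DESeq2 and 0 by limma-voom. Igf2, the insulin genes Ins1 and Ins2, Igfbp1 and Igfbpl1 were listed but not found in the count table, from which the authors had removed genes of low CPM.

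Among the 12 proteases of binding proteins and their inhibitors, Pappa included, 2 were higher and 6 lower with each mimic. Pappa2, the relative of Pappa known to cut IGFBP3 and IGFBP5, was scarce at 1.16 ± 0.65 CPM with let-7d, 1.32 ± 0.64 CPM with let-7e and 3.32 ± 0.90 CPM in control (SD, n = 4 each). It fell by 1.49 ± 0.23 on the log2 scale with let-7d (edgeR adjusted p = 4.054e-04) and by 1.33 ± 0.22 with let-7e (adjusted p = 0.00118). Htra3, a serine protease of the HtrA family, fell by 0.37 with let-7d and by 0.29 with let-7e, and Plau, urokinase, fell by 0.39 with let-7d and by 0.49 with let-7e.

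The 2 protease-list genes that rose were inhibitors. Timp2, an inhibitor of matrix metalloproteases, averaged 717 ± 39.3 CPM with let-7d, 656 ± 32.3 CPM with let-7e and 507 ± 21.4 CPM in control. Its log2 fold change was 0.50 ± 0.056 with let-7d and 0.37 ± 0.056 with let-7e. Timp1, of the same family, rose by 0.38 ± 0.10 with let-7d and 0.57 ± 0.10 with let-7e. Timp3 fell with let-7d, by 0.34 (adjusted p = 0.00592), and was at -0.14 with let-7e (adjusted p = 0.280). Stc1 and Stc2, stanniocalcins known to block PAPP-A, were called with neither mimic; Stc2 was at -0.24 ± 0.10 with let-7d (adjusted p = 0.130) and -0.13 ± 0.10 with let-7e (adjusted p = 0.478).

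Of the 4 listed integrins, through which binding proteins can act on cells, Itga5, Itgb3 and Itgav were lower with each mimic and Itgb1 was not called. Of 9 receptors and partners of the binding proteins 4 were lower with let-7d and 3 with let-7e, and 0 were higher. Itga5 fell by 0.56 ± 0.071 with let-7d and by 0.35 ± 0.071 with let-7e, and Itgb3 fell by 0.51 ± 0.063 with let-7d and by 0.43 ± 0.062 with let-7e. Itgav, the partner of Itgb3, fell by 0.42 ± 0.057 with let-7d and by 0.25 ± 0.057 with let-7e. Itgb1 was at -0.012 ± 0.048 with let-7d and 0.0019 ± 0.048 with let-7e.

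Igf2r, which clears IGF2 from the cell surface and sorts lysosomal enzymes, averaged 90.6 ± 26.9 CPM with let-7d, 89.6 ± 29.3 CPM with let-7e and 112 ± 33.4 CPM in control. It fell by 0.31 ± 0.068 with let-7d (edgeR adjusted p = 0.00607) and by 0.33 ± 0.068 with let-7e (adjusted p = 0.00561). With Igf1r, 2 of 4 listed receptors were lower with let-7d and 1 of 4 with let-7e.

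Inside the cell, 10 of 37 listed relays of the IGF signal were lower and 1 higher with let-7d, and 5 lower and 1 higher with let-7e. Of all genes 9.81% were lower and 6.41% higher with let-7d, and 5.69% lower and 3.81% higher with let-7e. Irs1, the docking protein next to the receptor, fell by 0.41 ± 0.097 with let-7d and by 0.37 ± 0.095 with let-7e, and Rps6kb1, the kinase S6K1, fell by 0.32 with let-7d and by 0.29 with let-7e. Grb10, an adaptor known to restrain insulin and IGF receptors, fell too, by 0.18 with let-7d and by 0.15 with let-7e. Rictor, a subunit of mTOR complex 2, was the 1 that rose, at 0.22 with let-7d and 0.24 with let-7e. Of the 8 genes of the growth hormone axis, which drives Igf1 in liver, 2 were higher and 1 lower with let-7d, and 2 higher and 0 lower with let-7e. Socs3, a feedback inhibitor of cytokine receptors, was at 0.38 ± 0.056 with let-7d and 0.32 ± 0.056 with let-7e, and Jak2, the kinase of the growth hormone receptor, at 0.17 with let-7d and 0.20 with let-7e. Cish was the 1 lower with let-7d, at -0.32 ± 0.10 (edgeR adjusted p = 0.0396). With let-7e Cish was at -0.13 ± 0.098 and was not called (adjusted p = 0.500).

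**Figure D5:**
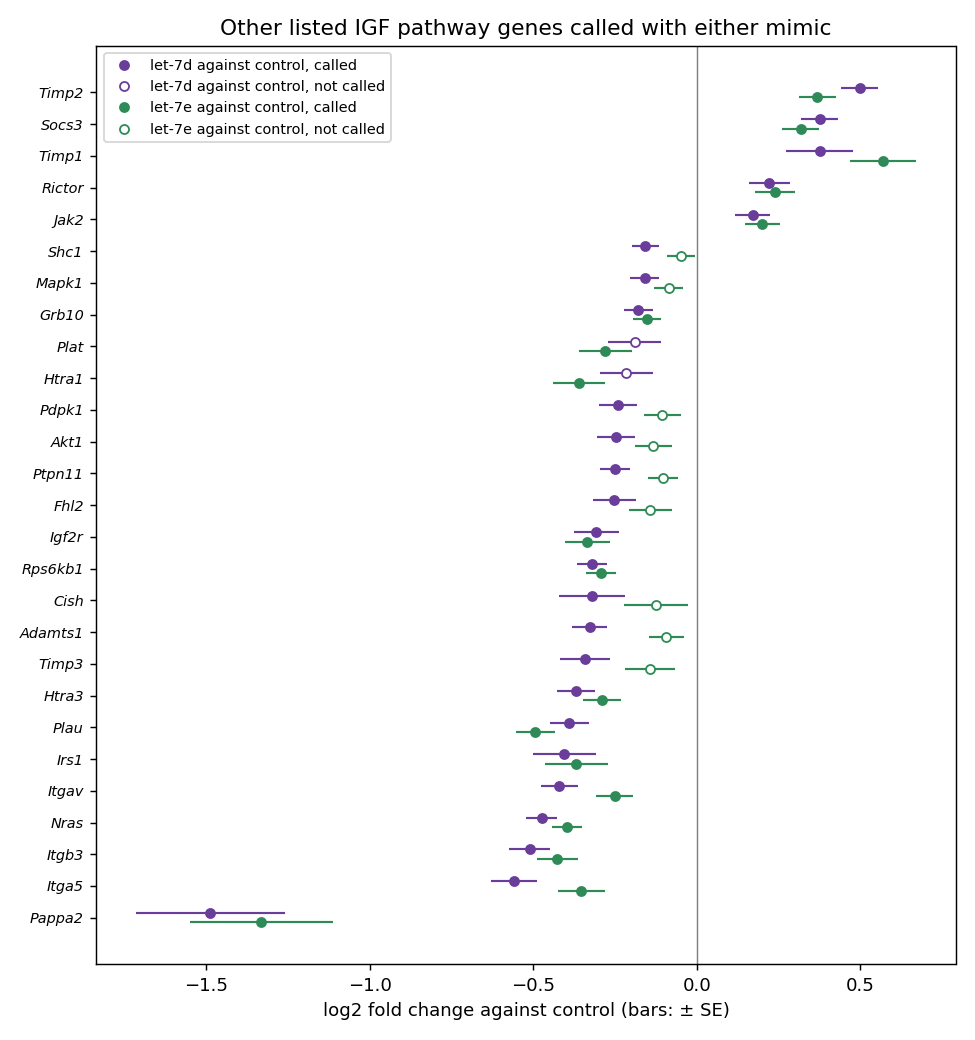
Log2 fold change against control of the listed IGF pathway genes outside the 9 that passed an adjusted p of 0.05 with let-7d or let-7e, 1 of them not drawn, with bars for ± SE. Filled points were called and open ones were not: Pappa2 lies lowest, at -1.49 with let-7d and -1.33 with let-7e, and Timp1, Timp2, Socs3, Rictor and Jak2 lie above 0 with each mimic.

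Genes with the pattern most like each of the 9 were sought among 11207 genes, by Pearson's r of log2 CPM over the 12 libraries after the mean of each ID run was subtracted. These are descriptions, in which genes share the libraries and the response to the mimics. Pappa was matched most closely, by Chd4, AI506816 and Adam19 (r of 0.983, 0.983 and 0.982), and Igf1r by Yap1, Zmat3 and Sf3a1 (0.969, 0.965 and 0.962). Igfbp4 was nearest to Pros1, Gpx3 and Crocc2 (0.975, 0.968 and 0.968), and Pros1 stood also among the genes nearest to Igfbp7 (0.945), with Cpxm1 (0.962) and Tnfaip8l1 (0.961). Igfbp2 was nearest to Scn7a (0.971), Igfbp3 to Ccn3 (0.969), Igfbp6 to Cygb (0.958) and Igfbp5 to Msra (0.944). Igf1 had the weakest best match of the 9, Ehhadh (0.908).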

How the data were processed

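Total RNA of 12 libraries was sequenced, 4 per group. The deposited values are raw counts for each Ensembl gene; genes of low CPM were removed by the authors before they deposited it, per the table's name. The submitters' processing notes name STAR and GRCm38.p6; of the version, read counter and strand setting, each is not given in the sources used here. The design text gives n = 6, and the 4 libraries listed per group were used. A second deposited table, named RPKM, was not used.

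Of 15754 identifiers 15742 matched GENCODE vM21 symbols; edgeR's filterByExpr removed 0 genes. Counts were scaled by TMM and tested with edgeR 4.0.16 (R 4.3.3), quasi-likelihood, two-sided, on group and ID run with 8 residual degrees of freedom, and Benjamini-Hochberg adjustment over all genes; group by ID run was the interaction fit. The fit was tested on simulated counts with known let-7d changes, 50 genes at each size. At log2 changes of -0.5 and 0.5, 28 and 37 were called in the right direction, and at -1 and 1, 41 and 42. Of the unchanged genes 8 were called. A gene that was not called may thus still have changed. CPM per kilobase divides CPM by the merged exon length. Libraries of the same group and run differed by more than sampling noise (chi-square over degrees of freedom, 2.31 to 9.92). The median SE of a log2 fold change was 0.085 with let-7d and 0.084 with let-7e.

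Alternatives were library totals, DESeq2 size factors, no filter beyond the authors' own, a mean CPM of at least 5, DESeq2 1.42.0, limma-voom 3.58.1, no run term, a replicate block, each run alone, the 2 groups compared alone and each library left out. The 9 genes and all lists were chosen with earlier results of these data known. The values of 1 listed pathway gene are not reported here, though it stays in the counts. The named genes were the 9, other listed pathway genes called with a mimic, and for each of the 9 the 3 genes of highest r among those with a mean log2 CPM of at least 2 (prior count 2); Insr, Itgb1, Stc1 and Stc2, which were not called, were named from the lists for their role after their values were seen.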

Additional observations from a re-analysis of the deposited data

Results flagged for a closer look

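The response of Igfbp3 to let-7d differed between the ID runs by a test of the difference itself, the interaction term of edgeR's quasi-likelihood fit. The log2 fold change in ID run 2 exceeded that in ID run 1 by 0.73 ± 0.13 (adjusted p = 0.0449), with Igfbp3 at 558 and 578 CPM with let-7d against 611 and 649 CPM in control in ID run 2, and at 152 and 140.3 CPM with let-7d against 279 and 257 CPM in control in ID run 1. Igfbp3 was lower with let-7d in 4 of 4 libraries when each is set beside the controls of its run. Under the alternatives with 1 library left out the difference ranged from 0.67 to 0.81, and the call ended in 6 of these 12 fits, with adjusted p up to 0.240, as it did at a mean CPM of at least 5 (adjusted p = 0.0594). What the runs are is not stated in the labels, so the cause was not tested.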

How the results depend on the processing

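All 414 member values against control kept their sign over 23 alternative settings. These settings reuse the same libraries and are no independent support. The fit with no filter beyond the authors' own repeats the main fit, since filterByExpr removed 0 genes. A kept sign can also be a value near 0, as for Igfbp2 with let-7e in ID run 2 alone, at 0.0025. Without the run term edgeR called 7 genes and 0 of the 9 with let-7d, and 0 genes and 0 of the 9 with let-7e (at an unadjusted p under 0.05, 2 of the 9 with each, and 552 genes with let-7e). Between the mimics (24 genes, 0 of the 9) there were 11 genes with library totals, 122 with DESeq2, 1 without the run term, 2 in ID run 1 alone and 1 in ID run 2 alone; with only the 2 groups compared there were 98 genes and 1 of the 9 (Igfbp2). ID run 1 alone called 2149 genes and 5 of the 9 with let-7d, and 1540 genes and 4 of the 9 with let-7e. ID run 2 alone called 740 genes and 3 of the 9 with let-7d, and 197 genes and 1 of the 9 with let-7e. The let-7d effect by run (38 genes, 1 of the 9) gave 69 genes with library totals, 11 genes and 0 of the 9 (3 at an unadjusted p under 0.05) at a mean CPM of at least 5, 194 genes and 2 of the 9 (Igfbp3 and Igfbp7) with DESeq2, and 16 genes with limma-voom. The let-7e effect by run (1 gene) gave 2 with library totals, 0 at a mean CPM of at least 5, 52 with DESeq2 and 0 with limma-voom (1107 and 1410 genes at an unadjusted p under 0.05 in the fits with 0). The cause of these moves was not tested, beyond the fewer libraries or genes of some fits.

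With 1 library left out, calls ranged from 1781 to 2535 genes and 6 to 8 of the 9 with let-7d, 844 to 1606 and 1 to 4 with let-7e, 3 to 38 and 0 to 1 between the mimics, 12589 to 12798 and 8 to 8 between runs, 0 to 219 and 0 to 2 for the let-7d effect by run, and 0 to 153 and 0 to 0 for the let-7e effect by run.

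Values that changed sign had not passed the test. Between the mimics Igfbp6 was 0.0091 with library totals, Igfbp3 0.11 and Igfbp6 0.091 without the run term, Igf1 -0.017 and Igfbp7 -0.043 in ID run 1 alone, and Igfbp3 0.28 and Igfbp6 0.25 in ID run 2 alone. With 1 library left out Igf1 ranged from -0.0068 to 0.087, Igfbp3 from -0.13 to 0.074 and Igfbp6 from -0.12 to 0.052. For the let-7d effect by run Igf1r ranged from -0.19 to 0.050, Igfbp2 from -0.52 to 0.15 and Pappa from -0.34 to 0.28. For the let-7e effect by run Igfbp2 ranged from -0.58 to 0.090, Igfbp3 from -0.078 to 0.21, Igfbp4 from -0.10 to 0.36, Igfbp5 from -0.36 to 0.13 and Pappa from -0.064 to 0.55.

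Whether replicate numbers pair the libraries was not settled. Deviations of same-numbered libraries from the mean of their group and run correlated at -0.16 to 0.026 in ID run 1 and at 0.067 to 0.43 in ID run 2. With 2 libraries per group and run these deviations mirror each other. Both replicates of a run then give the same correlation, and the check cannot decide. With the replicate block 2530 genes and 7 of the 9 were called with let-7d (Igfbp5 at an adjusted p of 0.0587), 1463 and 3 with let-7e, and 5 and 0 between the mimics. Depth limits Igfbp5 most, the scarcest of the 9 at 2.37 to 14.5 CPM.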
